A study of Mus musculus with 10 samples.

Results

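Livers of mice without SCAP were compared with wild type livers, both on chow, in 4 of the 10 arrays of a study of SREBP target genes. The comparison takes the 2 arrays hybridised with RNA of Scap knockout mice and the 2 hybridised with RNA of their wild type controls. It covers all 8251 genes that a probe set of the array names singly. The Scap knockout mice were 10 to 12 week old males of genotype Scap-/-;MX1-Cre, and the controls were labelled as corresponding wild type males of the same age. Both groups had 4 injections of polyinosinic-polycytidylic acid, an inducer of interferon that turns on Cre from the MX1 promoter, and their livers were taken 14 days after the last. The controls thus carry the injections too, and the labels do not say whether they carried the Cre. The MX1 promoter answers to interferon in other cells than hepatocytes as well, although the labels call the knockout liver-specific. The other 6 arrays give values beside this comparison, and they also enter the variance estimate of the fit and the choice of each gene's probe set. They hold TgSREBP-1a and TgSREBP-2 mice, which make nuclear human SREBP-1a or SREBP-2, and their wild type littermates, all males of 12 to 16 weeks after 2 weeks on a diet high in protein and low in carbohydrate.

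SREBPs are transcription factors of lipid synthesis that are made as precursors held in the endoplasmic reticulum membrane. SCAP is the sterol-sensing escort that carries them to the Golgi, where proteases free the active part, and without SCAP this step fails for all SREBPs. In liver, SREBP-2 is known mainly for the genes of cholesterol synthesis and uptake, and SREBP-1c for those of fatty acid synthesis.

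Each group was 1 pool, made of equal parts of RNA from 5 livers to a total of 20 µg and labelled for 2 hybridisations. The p-values therefore measure the spread between hybridisations of 1 pool. They compare these pools and hold no error between mice, and with so few arrays the precision is limited. Deposited log2 signals on the 4 arrays spanned 2.90 to 13.94, and array medians lay between 6.37 and 6.39. The duplicates correlated across genes at 0.9969 for Scap knockout, where 6 genes lay at least 1.5-fold apart, and at 0.9978 for wild type, where 0 did. In the high-protein wild type, TgSREBP-1a and TgSREBP-2 pools, which also enter the variance estimate, 101, 151 and 55 genes lay so far apart. Neither Scap itself nor Srebf2 is named singly by a probe set, and both were not analysed here, so the deletion could not be checked on its own transcript. Of 12 measured hepatocyte markers 0 were called, with 3 at an unadjusted p under 0.05, a median difference of -0.015 and -0.27 ± 0.11 for the furthest member, Tat. Hepatocyte signal was thus present in both pools, as in Ahsg, a secreted liver protein, at 12.75 and 12.79 in the knockout pool and 12.53 and 12.55 in the wild type pool.

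A gene is called here at an adjusted p under 0.05 in limma together with at least a 1.5-fold difference between the group means. A difference is Scap knockout minus wild type in log2 units, and ± is its moderated standard error with n = 2 arrays a group. By this rule 137 of 8251 genes were called (1.66%), 61 higher (0.739%) and 76 lower (0.921%) in Scap knockout. The larger differences lay on the lower side, with 34 genes at least 2-fold lower and 19 at least 2-fold higher, and 15 against 3 past 4-fold. The median difference over all genes was 0.005, and 807 of the 8251 had an unadjusted p under 0.05 in limma. In each of the 137 genes both knockout arrays lay on one side of both wild type arrays. Selection by p and fold favours such genes, so this is no separate support for the calls. Without 1 of the 4 arrays, from 100 genes (without wild type replicate 2) to 116 genes (without Scap knockout replicate 1) were called, and 90 of the 137 were called in all 4 such fits. The higher genes numbered 39 without Scap knockout replicate 2 and 40 without wild type replicate 1, and the lower genes 59 to 69. Genes of 5 lists of lipid synthesis and the SREBP pathway made up 29 of the 76 lower genes (38.2%) and 0 of the 61 higher ones. Genes made by the exocrine pancreas were another 12 of the lower, and genes of skeletal muscle and squamous epithelium were 4 and 9 of the higher.

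**Figure D1:**
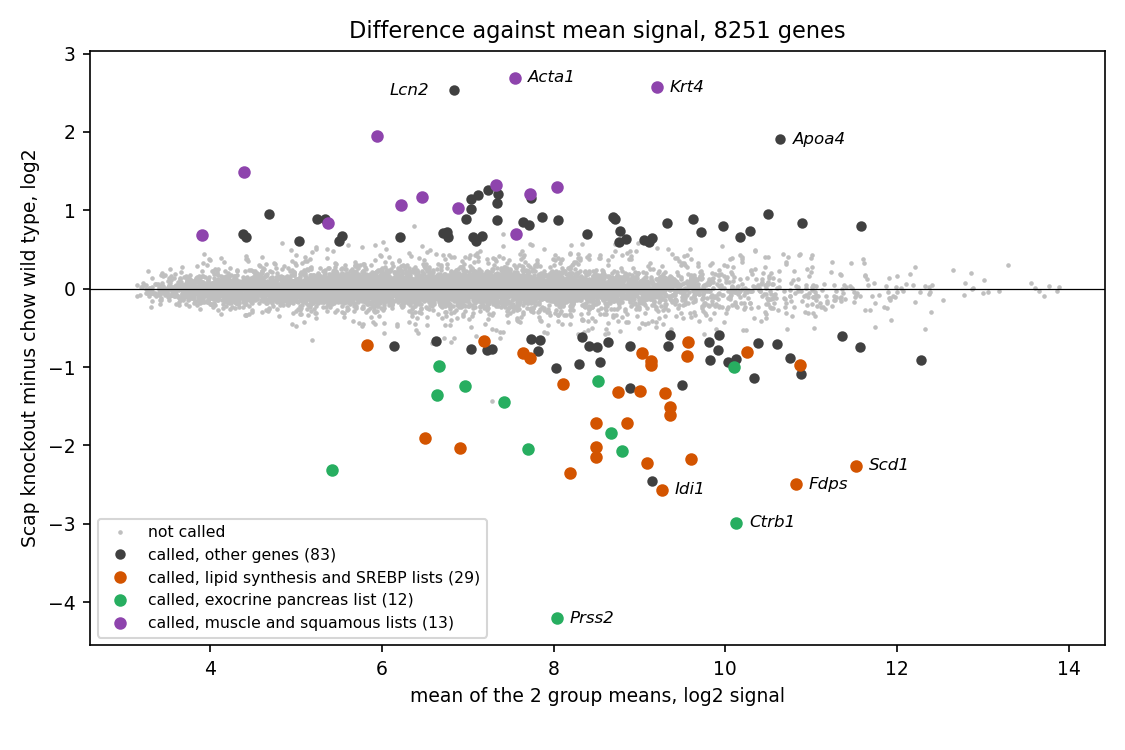
Difference between the group means (vertical axis, Scap knockout minus chow wild type, log2) against mean log2 signal (horizontal axis) for the 8251 genes, 1 point a gene, with called genes coloured by list. The lipid synthesis genes lie below 0 with Idi1 and Fdps lowest among them, Prss2 and Ctrb1 of the pancreas list lie lowest of all, and Acta1, Krt4 and Lcn2 lie highest.

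Transcripts of cholesterol synthesis enzymes were lower along almost the whole pathway. Of 18 measured enzymes 13 fell and 0 rose, where 0.921% of all genes fell, and the list's median was -1.58 against 0.005 for all genes. Of the 5 enzymes not called, 4 had an unadjusted p under 0.05, each with a difference below 0. Of these calls 12 held whichever of the 4 arrays was left out. Pmvk and Acat2 were not analysed here.

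The pathway begins with Hmgcs1, which joins acetyl units to HMG-CoA. Its log2 signals were 7.25 and 7.60 in Scap knockout against 9.48 and 9.66 in wild type, so the groups lay far apart, and it fell by 2.15 ± 0.21 or 4.43-fold (adjusted p = 0.000251). Mvd, which decarboxylates the mevalonate intermediate, had values of 7.23 and 7.34 against 8.11 and 8.23 in the same order and fell by 0.89 ± 0.11. The kinase Mvk between them stood at -0.40 ± 0.10 (adjusted p = 0.0667), short of the call on its brightest probe set. Its other probe set fell (-0.84 ± 0.08), and the mean of both, -0.62, was called.

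The isoprenoid steps showed the largest differences of the pathway. Idi1, the isomerase that makes the reactive isoprene unit, went from 10.54 and 10.55 in wild type to 7.92 and 8.04 in Scap knockout, a fall of 2.57 ± 0.09 or 5.92-fold (adjusted p = 7.82e-08). Fdps, which builds farnesyl diphosphate, stood at 9.60 and 9.54 against 12.02 and 12.12 and fell by 2.50 ± 0.08. A second bright probe set of Fdps fell by a like amount (-2.12 ± 0.09), while a pair of dim ones stood at -0.04 and 0.07. Ggps1, which leads from the same precursor to geranylgeranyl diphosphate and not to sterols, had 6.02 and 5.93 against 5.98 and 5.93, with overlapping groups and a difference of 0.02 ± 0.08.

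From squalene on, the committed sterol enzymes fell as well. Fdft1, which makes squalene, had signals of 7.73 and 7.54 against 9.29 and 9.42 and fell by 1.72 ± 0.14, and Sqle, its epoxidase, had 7.57 and 7.39 against 9.48 and 9.53 and fell by 2.02 ± 0.12. Lss, which closes the sterol rings, fell by 1.22 ± 0.09. Among the demethylation steps Cyp51 fell by 2.03 ± 0.17, Msmo1 fell by 2.35 ± 0.19 and Nsdhl fell by 2.22 ± 0.11, and all 3 probe sets of Nsdhl were called lower. The reductases Tm7sf2 and Dhcr7 fell by 1.32 ± 0.09 and 1.91 ± 0.20.

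Several late enzymes had smaller or less certain differences. Hsd17b7, a sterol ketoreductase, fell by 0.72 ± 0.13, but lost its call without any 1 of the 4 arrays (adjusted p of 0.0647 to 0.177). Sc5d, a sterol desaturase, had 6.23 and 6.91 in Scap knockout against 8.05 and 7.96, so its knockout duplicates lay wide apart. Its difference was -1.43 ± 0.33 with an adjusted p = 0.0517, just over the threshold, and 1.64e-05 when only the 4 arrays were fitted. Its other probe set was called lower (-1.48 ± 0.25), as was the mean of both (-1.46). Ebp, a sterol isomerase, stood at -0.57 ± 0.13 and Lbr, a sterol reductase that is also a receptor of the nuclear envelope, at -0.33 ± 0.12, both under 1.5-fold. Erg28, a membrane protein of the sterol enzymes that was on no list, fell by 0.66 ± 0.10, lost at an adjusted p of 0.0516 without Scap knockout replicate 2 and 0.067 without wild type replicate 2.

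**Figure D2:**
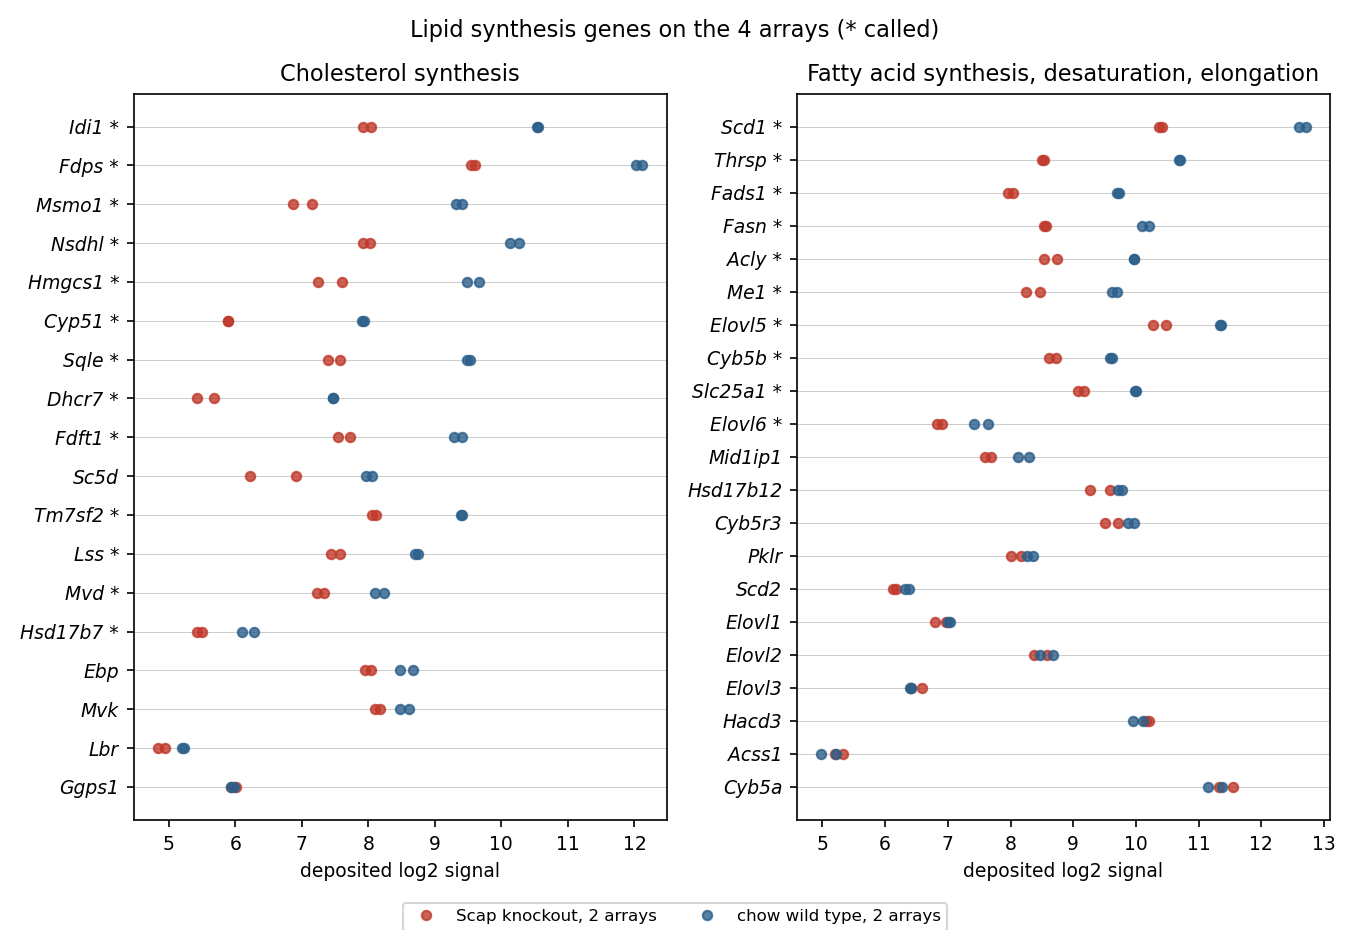
Log2 signal (horizontal axis) of every measured gene of cholesterol synthesis (left) and of fatty acid synthesis, desaturation and elongation (right) on the 2 Scap knockout arrays (red) and the 2 chow wild type arrays (blue), ordered by difference, with an asterisk for a call. Both knockout points lie left of both wild type points in all called genes, by 2.57 in the mean of Idi1, while the points of Ggps1 and Scd2 lie close together.

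The promoters of these genes were read for the letters of known lipid gene elements. Of 32851 promoters in the RefSeq table (GRCm38.p6, 250 bases before to 50 after a start site), 1.24% hold TCACNCCAC, a core of the sterol regulatory element with 1 free base, on either strand. Among the cholesterol enzymes called lower with a promoter in the table, only Hmgcs1 of 10 held it, at -137 from its start and in the exact form TCACCCCAC. Among all 59 called lower genes with a promoter, Aldoc, Gstm6 and Sycn held it too, and among 46 called higher genes Mt4 did. CCAAT, the element of NF-Y, was found on either strand in a promoter of all 10 cholesterol enzymes, or 83.3% of their 12 promoters, against 37.4% of all promoters and 37.0% of those of genes tested. The measured enzymes that were not called hold it too, since 15 of the 15 measured enzymes in the table do. GGGCGG, the Sp1 element, was in 91.7% of the 12, against 57.1% among genes tested, and CACGTG, the E-box, in 16.7% against 9.55%. The 5 called fatty acid synthesis genes each had a promoter with CCAAT and none with TCACNCCAC. Counted by gene, 42.5% of the genes tested with a promoter held CCAAT and 1.64% held TCACNCCAC. A match is a run of letters and not a bound site. The 250 bases before the start of 6 called lower genes are shown 5′ to 3′, as the enzymes with and without the sterol element letters and 3 lipogenic or glycolytic genes beside them, with TCACNCCAC and CCAAT (or its reverse complement ATTGG) in capitals. Hmgcs1 lies at chr13:119690101-119690350 (+ strand), Idi1 at chr13:8885356-8885605 (+ strand), Cyp51 at chr5:4104698-4104947 (- strand), Fasn at chr11:120824548-120824797 (- strand), Thrsp at chr7:97417551-97417800 (- strand) and Aldoc at chr11:78322823-78323072 (+ strand).
Hmgcs1: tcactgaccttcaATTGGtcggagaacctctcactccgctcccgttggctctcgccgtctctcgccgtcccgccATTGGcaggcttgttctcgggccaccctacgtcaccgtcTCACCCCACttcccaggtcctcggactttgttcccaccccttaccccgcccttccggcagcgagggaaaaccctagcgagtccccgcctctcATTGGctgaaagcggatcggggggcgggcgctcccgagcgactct
Idi1: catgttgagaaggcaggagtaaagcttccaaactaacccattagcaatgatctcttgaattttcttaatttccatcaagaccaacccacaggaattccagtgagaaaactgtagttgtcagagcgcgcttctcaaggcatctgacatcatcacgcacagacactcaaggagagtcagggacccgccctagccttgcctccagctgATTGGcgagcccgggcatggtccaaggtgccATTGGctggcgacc
Cyp51: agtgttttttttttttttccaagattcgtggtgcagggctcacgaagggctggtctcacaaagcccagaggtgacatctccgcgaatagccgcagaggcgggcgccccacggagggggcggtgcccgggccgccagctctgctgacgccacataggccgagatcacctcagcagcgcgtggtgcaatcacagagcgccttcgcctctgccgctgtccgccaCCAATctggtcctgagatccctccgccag
Fasn: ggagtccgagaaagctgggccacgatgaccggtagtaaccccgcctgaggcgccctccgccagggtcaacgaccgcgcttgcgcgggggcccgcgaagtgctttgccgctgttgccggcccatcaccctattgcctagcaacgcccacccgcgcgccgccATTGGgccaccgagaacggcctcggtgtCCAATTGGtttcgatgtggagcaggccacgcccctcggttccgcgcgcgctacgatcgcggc
Thrsp: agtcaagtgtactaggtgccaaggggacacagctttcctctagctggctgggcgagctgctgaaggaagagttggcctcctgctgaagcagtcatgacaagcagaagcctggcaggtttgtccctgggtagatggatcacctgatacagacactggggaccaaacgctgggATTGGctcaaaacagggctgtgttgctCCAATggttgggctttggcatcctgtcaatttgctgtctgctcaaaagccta
Aldoc: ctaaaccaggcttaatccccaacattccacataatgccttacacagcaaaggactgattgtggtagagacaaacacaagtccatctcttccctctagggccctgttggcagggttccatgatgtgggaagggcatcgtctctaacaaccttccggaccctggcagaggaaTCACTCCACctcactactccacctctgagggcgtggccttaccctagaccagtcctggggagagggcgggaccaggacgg
In Hmgcs1 the sterol element letters lie between CCAAT matches at -176 and -45 from the start, while Idi1 and Cyp51, which fell by about as much, hold CCAAT and, like Hmgcs1, GGGCGG, but not TCACNCCAC. Aldoc, an aldolase isoform of glycolysis, fell by 0.78 ± 0.10 and holds TCACTCCAC at -80.

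Transcripts of fatty acid synthesis were lower in Scap knockout at most of the measured steps. Of 8 measured genes 5 fell and 0 rose, with a median of -1.08. Thrsp, a regulator of lipogenic enzymes, fell most. Its signals were 8.50 and 8.53 in Scap knockout against 10.68 and 10.71 in wild type, a fall of 2.18 ± 0.09 or 4.53-fold (adjusted p = 3.69e-07). Fasn, the fatty acid synthase, had 8.53 and 8.57 against 10.10 and 10.21 in that order and fell by 1.61 ± 0.11. Acly, which cuts citrate to cytosolic acetyl-CoA, had 8.54 and 8.74 against 9.97 and 9.97 and fell by 1.33 ± 0.11. Slc25a1, which exports the citrate from mitochondria, fell by 0.86 ± 0.13, with an adjusted p of 0.0514 without wild type replicate 2. Me1, the malic enzyme that supplies NADPH, fell by 1.30 ± 0.13. The acetyl-CoA carboxylase cofactor Mid1ip1 stood at -0.57 ± 0.09 (adjusted p = 0.00409), short of 1.5-fold, while its other probe set fell by more (-1.96 ± 0.22) and the mean of both, -1.27, was called. The mitochondrial acetate enzyme Acss1 and the pyruvate kinase Pklr stood at 0.17 ± 0.16 and -0.22 ± 0.10. Acaca and Acss2 were not analysed here.

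Of 13 measured genes of desaturation and elongation 5 fell and 0 rose, with a median of -0.31. Scd1, the main stearoyl-CoA desaturase of liver, had signals of 10.38 and 10.42 in Scap knockout against 12.71 and 12.60 in wild type. It fell by 2.26 ± 0.09 or 4.78-fold, and a second probe set fell by less (-1.58 ± 0.08), while the third stood at 0.11 ± 0.37. Its homologue Scd2 had 6.17 and 6.13 against 6.32 and 6.38 in the same order, with a difference of -0.20 ± 0.09 (adjusted p = 0.547). Fads1, a desaturase of polyunsaturated fatty acids, stood at 7.96 and 8.05 against 9.71 and 9.72 and fell by 1.71 ± 0.09. The elongases Elovl5 and Elovl6 fell by 0.97 ± 0.14 and 0.66 ± 0.12. The adjusted p of Elovl5 was 0.0506 with Scap knockout replicate 1 left out and 0.0517 with wild type replicate 2 left out. That of Elovl6 was 0.114 and 0.0677 when Scap knockout replicates 1 and 2 were left out in turn, and 0.154 when wild type replicate 2 was. Cyb5b, a cytochrome that passes electrons to such enzymes, fell by 0.93 ± 0.10, and both its probe sets were called lower. The 8 members not called ran from -0.31 ± 0.17 in Hsd17b12 to 0.18 ± 0.12 in Cyb5a, with Cyb5r3 at -0.31 ± 0.12, the elongases Elovl1, Elovl2 and Elovl3 at -0.14 ± 0.10, -0.09 ± 0.21 and 0.10 ± 0.15, and the dehydratase Hacd3 at 0.15 ± 0.13.

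The steps that build glycerolipids were mostly not called. Of 17 measured genes 4 fell and 0 rose, and the median was -0.01. Lpcat3, which puts polyunsaturated chains into phospholipids, fell by 0.83 ± 0.10 from 8.08 and 8.04 in wild type to 7.20 and 7.26 in Scap knockout. Pcyt2, of phosphatidylethanolamine synthesis, fell by 0.80 ± 0.08 and Gpam, the mitochondrial glycerol phosphate acyltransferase, by 0.68 ± 0.09. The acyl-CoA synthetase Acsl5 fell by 0.82 ± 0.14, but not without any 1 array (adjusted p of 0.0638 to 0.102). Acsl4, another acyl-CoA synthetase, stood at -0.97 ± 0.28 (adjusted p = 0.144) with knockout duplicates of 5.93 and 6.37, and was called only when the 4 arrays were fitted alone or with a block within each set. Dbi, the acyl-CoA-binding protein, was on no list and fell by 1.09 ± 0.08 from 11.44 and 11.41 in wild type to 10.30 and 10.37 in Scap knockout.

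Of 9 measured genes of the SREBP pathway and its sterol handling 2 fell. Srebf1, which encodes SREBP-1 and is itself turned on by SREBPs, had 10.07 and 10.14 in wild type and 8.59 and 8.60 without SCAP. It fell by 1.51 ± 0.07 or 2.84-fold (adjusted p = 8.71e-07). Tmem97, which binds the lysosomal sterol transporter, fell by 0.98 ± 0.10 from 9.55 and 9.70 in wild type to 8.61 and 8.69 in Scap knockout. Insig1, the retention protein of SCAP, stood at 4.32 and 4.38 against 4.32 and 4.19, with groups that touched and a difference of 0.10 ± 0.12. These signals lay under the lower quartile of the arrays (5.08 to 5.11), and so dim a probe set limits the difference that could be seen. The protease gene Mbtps1 stood at -0.09 ± 0.08, the lysosomal sterol carriers Npc1 and Npc2 at 0.11 ± 0.12 and -0.34 ± 0.11, the receptor Lrp1 at -0.05 ± 0.08 and the lipase Lpl at -0.24 ± 0.17. The retinol dehydrogenase Rdh11 was at -0.41 ± 0.14 on the probe set used, while its other one fell (-1.66 ± 0.10) and the mean of both was -1.03 and called. Insig2 and Stard4 were not analysed here.

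Genes of the neighbouring lipid pathways changed little. Of 10 measured NADPH genes only Me1 fell. Tkt, of the pentose phosphate pathway, had 8.50 and 8.51 against 9.05 and 9.03 and a difference of -0.54 ± 0.10 (adjusted p = 0.0122), under 1.5-fold, and Pgd stood at -0.10 ± 0.08. In the list of LXR targets and sterol efflux only Lpcat3 of 8 fell, with Abca1 at -0.30 ± 0.29 and Scarb1 at -0.30 ± 0.09. Of 13 bile acid genes the ligase Slc27a5 fell by 0.69 ± 0.10, with an adjusted p of 0.0516 without Scap knockout replicate 2 and 0.0565 without wild type replicate 2. Cyp7a1, the rate-limiting enzyme of bile acid synthesis, had knockout duplicates of 7.42 and 8.05 and a difference of 0.17 ± 0.16 (adjusted p = 0.942), or -0.14 without Scap knockout replicate 2. Abcb4, the canalicular phospholipid transporter, was at 0.55 ± 0.07 (adjusted p = 0.002), short of 1.5-fold. Of 24 PPAR alpha targets the thiolase Acaa1b fell by 0.74 ± 0.09, and Cyp4a14 rose by 0.89 ± 0.19 but not without any 1 array (adjusted p of 0.0902 to 0.284). Ehhadh, of peroxisomal oxidation, stood at -0.68 ± 0.17 (adjusted p = 0.0814) and was called lower with the 4 arrays fitted alone or with a block within each set. Of 13 genes of lipid droplets and lipolysis the esterase Ces1d fell by 0.78 ± 0.09, on both of its probe sets.

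Apoa4 was the 1 gene called of 17 measured lipoprotein genes. It encodes an apolipoprotein of intestine and, in mice, of liver. Its signals were 11.57 and 11.60 in Scap knockout against 9.66 and 9.70 in wild type, a rise of 1.91 ± 0.08 or 3.75-fold (adjusted p = 5.62e-07). Apoc2 stood at 0.43 ± 0.09 (adjusted p = 0.0325), under 1.5-fold, Apob at 0.14 ± 0.13 and the phospholipid transfer protein Pltp at -0.41 ± 0.13.

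**Figure D3:**
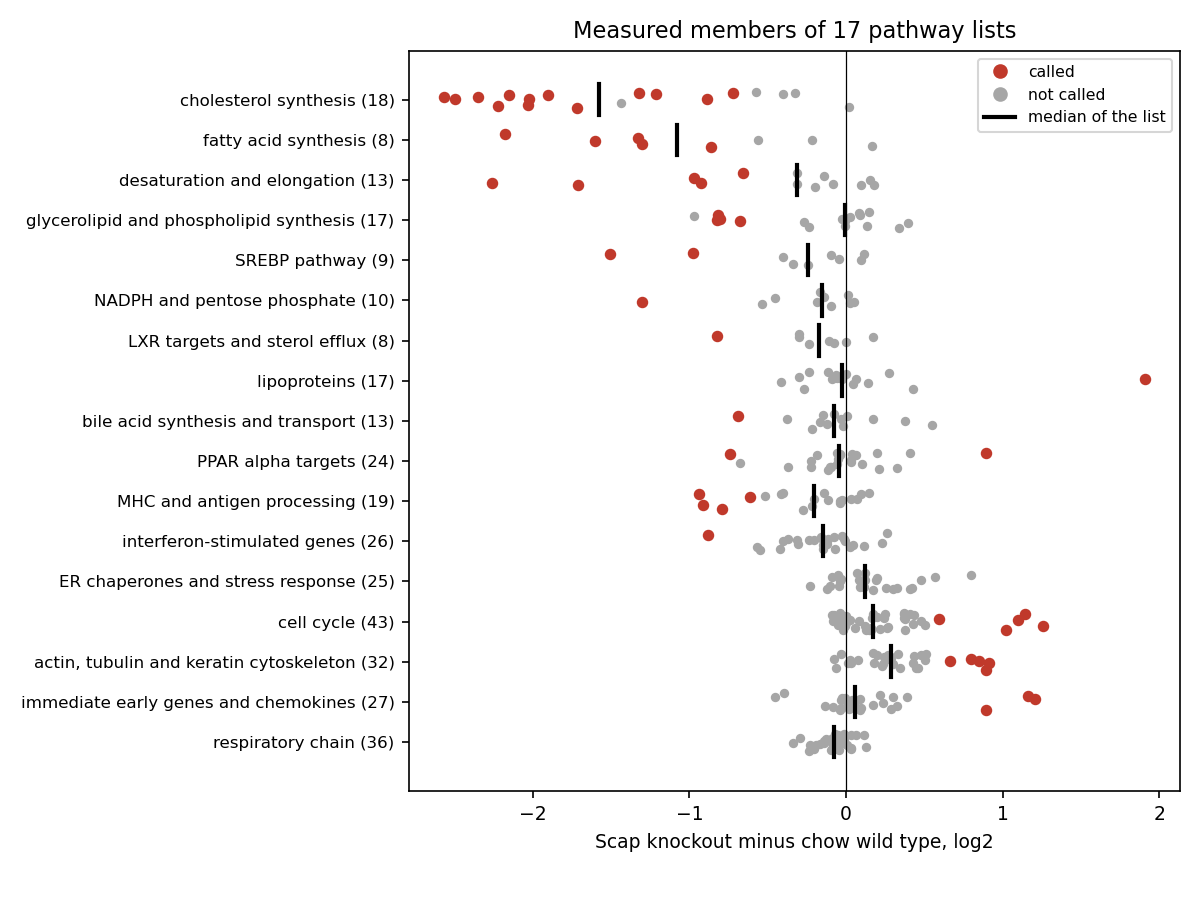
Difference between Scap knockout and chow wild type (horizontal axis, log2) of each measured member of 17 pathway lists, with the number measured after each name, called members in red, other members in grey and a bar at the list's median. The median stands at -1.58 for cholesterol synthesis and at 0.29 for the cytoskeleton list, and single members such as Apoa4 stand apart from lists whose median is near 0.

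The 2 transgenic comparisons give values for the same genes with SREBPs added instead of blocked. Their group means share no array with those of the Scap comparison, but the variance estimate of the fit is common to all. The transgenic comparisons share their wild type arrays with each other, and their diet and age differ from those of the Scap comparison. Against the high-protein wild type pool 608 genes were called in TgSREBP-1a (7.37%), 394 higher (4.78%) and 214 lower (2.59%). In TgSREBP-2 there were 212 (2.57%), with 180 higher (2.18%) and 32 lower (0.388%). Of the 76 genes that fell in Scap knockout, 41 (53.9%) were called higher in TgSREBP-1a, which is 10.4% of its 394, and 39 (51.3%) were so with SREBP-2, which is 21.7% of its 180. Another 23 of the 76 (30.3%) fell with SREBP-1a as well, and 2 (2.6%) fell with SREBP-2. Among the 61 genes that rose in Scap knockout, 19 (31.1%) also rose with SREBP-1a, while 12 (19.7%) fell. With SREBP-2, 5 of the 61 (8.2%) rose and 5 (8.2%) fell. Of the 29 lipid list genes among the 76, 28 were higher with SREBP-1a, 26 with SREBP-2 and 25 in both pools.

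Outside those lists, 5 more genes were lower without SCAP and higher in both transgenic pools. They were Hes6, a transcriptional cofactor that fell by 1.02 ± 0.14, Aldoc, Tff3, a secreted mucosal peptide that fell by 0.73 ± 0.08, Bhlhe40, a clock repressor, and the histocompatibility gene H2-Q4. Bhlhe40 fell by 0.66 ± 0.09 with an adjusted p of 0.0527 without wild type replicate 2, and H2-Q4 by 0.60 ± 0.08 with 0.0514 without the same array. For Thrsp, Scd1, Elovl5 and Pcyt2 of the lipid lists, and for Erg28 on no list, only 1 of the transgenic differences passed both the p and the fold threshold. Thrsp, at -2.18 ± 0.09 in Scap knockout, was at 3.19 ± 0.09 with SREBP-1a and 0.46 ± 0.09, not called, with SREBP-2. Scd1, at -2.26 ± 0.09, was at 1.03 ± 0.09 and 0.58 ± 0.09, the latter under 1.5-fold (adjusted p = 0.0051 in limma), and Elovl5, at -0.97 ± 0.14, at 1.31 ± 0.14 and 0.39 ± 0.14, not called in TgSREBP-2. Pcyt2, at -0.80 ± 0.08, was at 0.29 ± 0.08, not called, and 0.68 ± 0.08, and Erg28, at -0.66 ± 0.10, at 0.48 ± 0.10, under 1.5-fold (adjusted p = 0.00681), and 1.83 ± 0.10. The difference between the transgenic values was not tested for these genes.

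Some genes answered to added SREBPs with no call in Scap knockout. Scd2, at -0.20 ± 0.09 in Scap knockout, reached 4.87 ± 0.09 with SREBP-1a and 3.98 ± 0.09 with SREBP-2. Pltp was at 2.94 ± 0.13 and 1.96 ± 0.13 beside -0.41 ± 0.13, and Pgd at 2.09 ± 0.08 and 0.75 ± 0.08 beside -0.10 ± 0.08. Acss1 was at 3.08 ± 0.16 in TgSREBP-1a beside 0.17 ± 0.16.

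**Figure D4:**
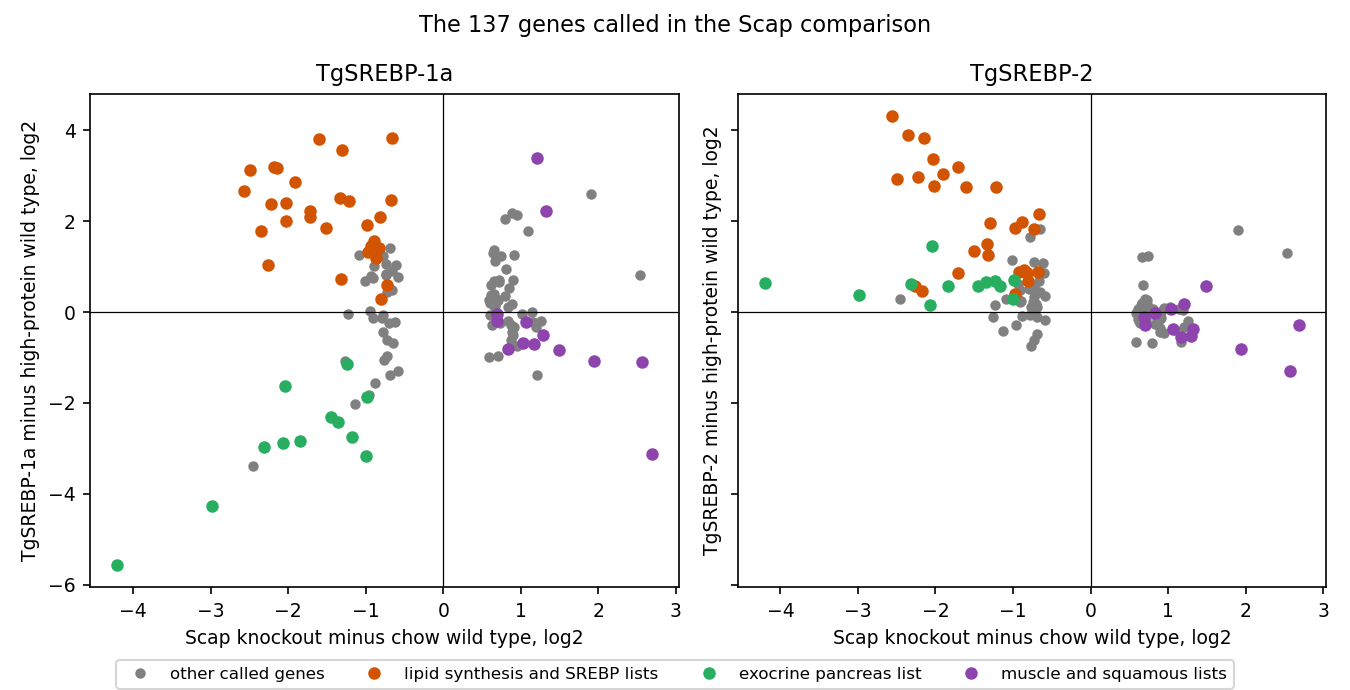
Difference of each of the 137 genes called in the Scap comparison (horizontal axis, log2) against its difference in TgSREBP-1a (left) or TgSREBP-2 (right) from the high-protein wild type pool (vertical axis, log2), 1 point a gene. Lipid list genes lie lower in Scap knockout and above 0 in both panels, while pancreas list genes lie below 0 in TgSREBP-1a and above 0 in TgSREBP-2.

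Genes of antigen presentation were the next group with several falls. Of 19 measured members 4 fell and 0 rose, with a median of -0.21. Psmb9, an immunoproteasome subunit, had 8.04 and 8.10 in Scap knockout against 8.92 and 9.10 in wild type and fell by 0.94 ± 0.11. The class I gene H2-Q10, a secreted molecule of liver, fell by 0.91 ± 0.09 from 12.67 and 12.80 in wild type to 11.73 and 11.92 in Scap knockout. The peptide transporter subunit Tap1 fell by 0.79 ± 0.12, with an adjusted p of 0.0586 without Scap knockout replicate 1 and 0.0652 without wild type replicate 2. Its other probe set stood at -0.12 ± 0.09, and the mean of both, -0.46, was under 1.5-fold. The subunit Psmb8 fell by 0.62 ± 0.13 but not without any 1 array (adjusted p of 0.101 to 0.385). H2-K1, H2-D1 and Psmb10 stood at -0.52 ± 0.11, -0.40 ± 0.09 and -0.42 ± 0.08, each with an adjusted p under 0.05 (0.0284, 0.0454 and 0.0222) but under 1.5-fold. Of 26 interferon-stimulated genes 1 fell, the GTPase Iigp1, by 0.88 ± 0.16, which was lost without any 1 array (adjusted p of 0.0569 to 0.137). The related GTPases Ifi47 and Gbp3 were at -0.55 ± 0.10 and -0.57 ± 0.11, and Irgm2, on no list, fell by 0.73 ± 0.08. Of 19 Kupffer cell and macrophage markers 0 were called, with 3 at an unadjusted p under 0.05. The receptor Marco had the largest difference, -0.63 ± 0.18 (adjusted p = 0.155), and was called lower with the 4 arrays fitted alone (0.000446) or with a replicate block within each set (0.012). The macrophage genes Cd5l and Mpeg1 stood at -0.47 ± 0.16 and -0.43 ± 0.12. The summed signal of the 19 was 5908 to 6051 in Scap knockout and 6196 to 6492 in wild type, where a summed signal adds the linear signals of a list's members on 1 array. The part of these cells in the falls was not tested.

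Other genes of hepatocyte metabolism fell singly. Upp2, a uridine phosphorylase, fell by 1.23 ± 0.09, Cyp2c70, a bile acid hydroxylase of mice, by 1.14 ± 0.15, Inmt, an amine methyltransferase, by 0.94 ± 0.10 and Csad, which makes the taurine precursor, by 0.90 ± 0.10. The histidine-degrading enzyme Hal fell by 0.59 ± 0.08 and stood at -0.52 with Scap knockout replicate 1 left out and at -0.55 with wild type replicate 2 left out, both under 1.5-fold. Among 24 genes of growth hormone and sex bias, Bcl6, a repressor, fell by 0.77 ± 0.08 and the signalling inhibitor Socs2 by 0.73 ± 0.13. Socs2 lost its call in 3 of the 4 fits without 1 array, with adjusted p of 0.136 without Scap knockout replicate 2, 0.0986 without wild type replicate 1 and 0.119 without wild type replicate 2. Of 25 amino acid genes Csad and Hal fell and the ornithine aminotransferase Oat rose by 0.73 ± 0.12, lost without any 1 array (adjusted p of up to 0.129) and under 1.5-fold in the mean of its probe sets (0.38). Bcl6 and Socs2 were also lower in both transgenic pools, Bcl6 at -1.06 ± 0.08 and -0.76 ± 0.08.

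The increases were led in liver terms by Lcn2, the iron-siderophore carrier of the acute phase. Its signals were 8.04 and 8.17 in Scap knockout against 5.59 and 5.56 in wild type, a rise of 2.53 ± 0.12 or 5.79-fold (adjusted p = 8.35e-07). A second probe set of Lcn2 stood at -0.10 ± 0.11 and was not called. Of 26 acute phase genes Lcn2 and the metal binder Mt1, up by 0.87 ± 0.08, rose and 0 fell. Differences above 0 and below 0 numbered 13 each. Among members not called, Orm2, Mt2 and Saa3 stood at 0.43 ± 0.08, 0.44 ± 0.09 and 0.40 ± 0.09, and Orm1 went furthest, at -0.52 (adjusted p = 0.314 in limma). Lcn2 is also a neutrophil gene, and the other 12 measured neutrophil markers were not called, S100a8 among them at -0.08 ± 0.08. Of 10 B cell and plasma cell markers Ly6d, which squamous cells also make, rose by 1.21 ± 0.10, while its dimmer probe set stood at 0.04 ± 0.17. Of the same markers the immunoglobulin chain Ighm fell by 0.69 ± 0.08 on 1 of its 16 probe sets. The other 15 were not called, the plain one with the highest mean stood at 0.08, and the mean of all was -0.12 (adjusted p = 0.729 in limma). Of 9 intestine markers Tff3 fell, and 11 of the 17 marker lists had 0 calls in limma, with 19 of their 118 members at an unadjusted p under 0.05. Over all genes 807 of 8251 had such a p. Lcn2, Apoa4, Mgst3 and Ugdh were called higher in Scap knockout and in both transgenic pools. Ugdh, which makes UDP-glucuronate, rose by 0.74 ± 0.15 in Scap knockout and lost its call without any 1 array (adjusted p of up to 0.257).

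Cell cycle genes stood mostly above 0. Of 43 measured 5 rose and 0 fell, where 0.739% of all genes rose, and 32 of the 43 had a difference above 0, with a median of 0.17. Cdc20, an activator of the anaphase complex, had 7.92 and 7.82 in Scap knockout against 6.71 and 6.50 in wild type and rose by 1.26 ± 0.10. Stmn1, which takes microtubules apart, rose by 1.14 ± 0.15 on its brighter probe set, while the dimmer one stood at -0.07 and the mean of both, 0.53, was under 1.5-fold. Cyclin D1, Ccnd1, rose by 1.09 ± 0.12, while another probe set stood at 0.16 and was not called. The mitotic kinase Cdk1 rose by 1.02 ± 0.09, from 6.63 and 6.43 in wild type to 7.53 and 7.56 in Scap knockout. Its inhibitor Cdkn1a rose by 0.59 ± 0.08. That difference was 0.54, under 1.5-fold, when Scap knockout replicate 2 was left out, and 0.54 when wild type replicate 1 was. The mean of its probe sets, 0.58, was under 1.5-fold too. Ccnb2 and Nek2 were at 0.48 ± 0.10 and 0.43 ± 0.10 with adjusted p of 0.0284 and 0.0441, under 1.5-fold. In this list 1 gene was called higher in TgSREBP-1a and 0 in TgSREBP-2.

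The list of actin, tubulin and keratin cytoskeleton had the highest median of the 32 pathway lists, 0.29. Of 32 genes 5 rose and 0 fell, and 29 had a difference above 0. Anxa2, a membrane-binding annexin, had 9.10 and 9.20 against 8.20 and 8.28 in the order used above and rose by 0.91 ± 0.08. Tubb6 rose by 0.85 ± 0.09 and the hepatocyte keratin Krt8 by 0.66 ± 0.08, with its partner Krt18 at 0.50 ± 0.11. Actb rose by 0.89 ± 0.16 but not without any 1 array (adjusted p of 0.093 to 0.162), and its other probe set, at 0.48 ± 0.19, was not called. Tubb2a rose by 0.80 ± 0.13, with adjusted p of 0.0973 when Scap knockout replicate 2 was left out and 0.106 and 0.0611 when wild type replicates 1 and 2 were. Its other probe set stood at -0.15 ± 0.17, and the mean of both, 0.33 (adjusted p = 0.419), was not called. Summed over the list, the signal was 15794 to 16792 in Scap knockout and 11846 to 12184 in wild type. Of 14 stellate cell and fibroblast markers 0 were called, with 5 at an unadjusted p under 0.05, among them Lum at 0.55 ± 0.13 and Col3a1 at 0.39 ± 0.14. Their summed signal was 2866 to 2902 in Scap knockout and 2485 to 2521 in wild type, and their part in the cytoskeletal values was not tested. Of 33 genes of collagens and matrix 0 were called in limma, with 9 at an unadjusted p under 0.05.

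Of 27 immediate early genes and chemokines 3 rose and 0 fell, with a median of 0.05. Egr1, an early transcription factor of stimulated cells, had 8.27 and 8.36 in Scap knockout against 7.12 and 7.19 in wild type and rose by 1.16 ± 0.11, while a dim probe set of it stood at -0.12 and the mean of both, 0.52, was under 1.5-fold. The neutrophil chemokine Cxcl1 rose by 1.21 ± 0.19, with an adjusted p of 0.07 without Scap knockout replicate 2 and 0.0893 without wild type replicate 2. Ccl2, a monocyte chemokine, rose by 0.90 ± 0.18 and lost its call without any 1 array (adjusted p of 0.135 to 0.189). Jun stood at 0.28 ± 0.09 and Gadd45g at -0.45 (adjusted p = 0.0118 in limma), under 1.5-fold. Of the 27, 18 had a difference above 0 and 9 below.

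Detoxification genes moved both ways. Of 27 genes of glutathione transfer and oxidative stress, Gstm3 rose by 0.95 ± 0.10 on both of its probe sets and Gstm6 fell by 0.74 ± 0.08 on both of its own. These genes are close relatives, and probes can share signal between them. Mgst3 rose by 0.67 ± 0.10 (adjusted p of 0.0699 without Scap knockout replicate 2 and 0.0829 without wild type replicate 1). Its other probe set stood at -0.04 ± 0.08, and the mean of both, 0.32 (adjusted p = 0.0526), was not called. Gsta3 fell by 0.91 ± 0.17 (0.203 without Scap knockout replicate 1, 0.0954 and 0.221 without wild type replicates 1 and 2). Of 19 cytochrome P450 genes of drug metabolism 0 were called, with 8 at an unadjusted p under 0.05, among them Cyp2b9 at 0.56 ± 0.10, Cyp2c39 at -0.51 ± 0.10 and Cyp2f2 at -0.50 ± 0.08. Alas1, which starts heme synthesis, was on no list and rose by 0.84 ± 0.09 from 10.42 and 10.54 in wild type to 11.25 and 11.38 in Scap knockout. Of 25 genes of endoplasmic reticulum chaperones 0 were called, with 5 at an unadjusted p under 0.05, among them Dnajb9 at 0.80 ± 0.24, Creld2 at 0.57 ± 0.08 and Ddit3 at 0.42 ± 0.09. The other probe set of Dnajb9, a cochaperone, was called higher (1.02 ± 0.18), and so were the mean of both (0.91, adjusted p = 0.0309) and the first one with the 4 arrays fitted alone or with a block within each set. Fkbp11, a secretory pathway chaperone outside that list, rose by 0.91 ± 0.08. The noncoding RNAs Gas5 and Meg3 rose by 1.20 ± 0.17 and 0.90 ± 0.09, Gas5 on 1 of its 3 probe sets, whose mean, 0.50, was under 1.5-fold.

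In all, 10 of the 32 pathway lists had 0 genes called in limma, with 41 of their 202 measured members at an unadjusted p under 0.05. That is a larger share than the 807 of all 8251 genes, so these lists cannot be taken as unchanged. Iron handling had 1 call of 11, Lcn2. Those without a call include glycolysis and gluconeogenesis, the respiratory chain, complement, coagulation and nuclear receptors. In that order 8 of 14, 29 of 36, 12 of 17, 18 of 21 and 14 of 25 members had a difference below 0. Collagens and matrix, with 25 of 33 above 0, and endoplasmic reticulum chaperones, with 17 of 25, leaned the other way.

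The largest fall of all was in genes of another organ. Prss2, a pancreatic trypsinogen, went from 10.13 and 10.15 in wild type to 5.94 and 5.93 in Scap knockout, a fall of 4.21 ± 0.07 or 18.4-fold (adjusted p = 3.12e-10). Ctrb1, the chymotrypsinogen, fell by 2.98 ± 0.08, the ribonuclease Rnase1 by 2.31 ± 0.13, the elastase Cela2a fell by 2.07 ± 0.10 and the bile salt lipase Cel by 1.84 ± 0.11. Of 19 measured exocrine pancreas markers 12 fell and 0 rose, and the list's median was -1.17. Their summed signal was 3707 to 4016 in Scap knockout and 10973 to 11162 in wild type. The other 7 were not called, among them the protease Ctrl at -0.43 ± 0.16. Of 10 endocrine pancreas markers 0 were called, with 0 at an unadjusted p under 0.05, and Ins2 stood at 0.12 ± 0.26. The same 12 genes were called lower in TgSREBP-1a against its own controls, and 5 of them were higher in TgSREBP-2, so the level of pancreas transcripts differed among the pools of both sets. In tissue RNA fewer cells of a type and less RNA per cell cannot be told apart. The part of pancreas tissue in the pools in the other differences was not tested. The clone 2210010C04Rik, on no list, fell by 2.46 ± 0.09.

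Muscle genes stood higher in the knockout pool. Acta1, the actin of skeletal muscle, rose more than any other gene, from 6.17 and 6.24 in wild type to 8.80 and 8.99 in Scap knockout, a difference of 2.69 ± 0.14. The myosin heavy chain Myh1 rose by 1.49 ± 0.20 and the light chain Myl1 by 1.03 ± 0.13. Tnnt3, of the troponin complex, rose by 0.83 ± 0.15, with adjusted p of 0.141 without Scap knockout replicate 2 and 0.0975 and 0.132 without wild type replicates 1 and 2. Of 16 measured markers 4 rose and 0 fell, the others including Mb at 0.31 ± 0.09 and Tnnc2 at 0.33 ± 0.09, and the median was 0.18. Their summed signal was 2813 to 2847 in Scap knockout and 2094 to 2149 in wild type. These 4 were called lower in TgSREBP-1a against its own controls, Acta1 at -3.11 ± 0.14, and 0 of them in TgSREBP-2. The cardiac and slow muscle genes Actc1 and Myl3, on no list, rose by 0.87 ± 0.09 and 0.95 ± 0.10.

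Keratins of squamous epithelium, such as that of oesophagus and forestomach, were also higher. Krt4 had 10.44 and 10.53 in Scap knockout against 7.99 and 7.84 in wild type and rose by 2.57 ± 0.12 or 5.93-fold, and its partner Krt13 rose by 1.94 ± 0.13. The dimmer probe set of Krt4 stood at 0.38 ± 0.11 and was not called. Another probe set of Krt13 was called higher (2.46 ± 0.13), and the third stood at -0.01 ± 0.08. The cornified envelope genes Sprr1a and Sprr3 rose by 1.32 ± 0.09 and 1.17 ± 0.14 and Krtdap, a keratinocyte peptide, by 1.29 ± 0.12. This list of 30 measured genes was assembled after these values were seen, so its 9 increases and 0 falls are a description. Its summed signal was 7819 to 8023 in Scap knockout and 5047 to 5334 in wild type, and defining members such as Krt10 stood at 0.24 ± 0.08. Mt4, Asprv1 and Rptn of the 9 kept their call in 1 of the 4 fits without 1 array, with adjusted p of up to 0.129 (Mt4 without wild type replicate 2), 0.103 (Asprv1 without the same array) and 0.0677 (Rptn without Scap knockout replicate 2). Krt4 and Krt13 were called lower in both transgenic pools, and Sprr3, at -0.71, fell with SREBP-1a only. Other members of the 9 went the opposite way. Ly6d, at 3.39, and Sprr1a, at 2.23, rose with SREBP-1a and had no call with SREBP-2. The part of muscle and squamous tissue in the other increases was not tested.

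**Figure D5:**
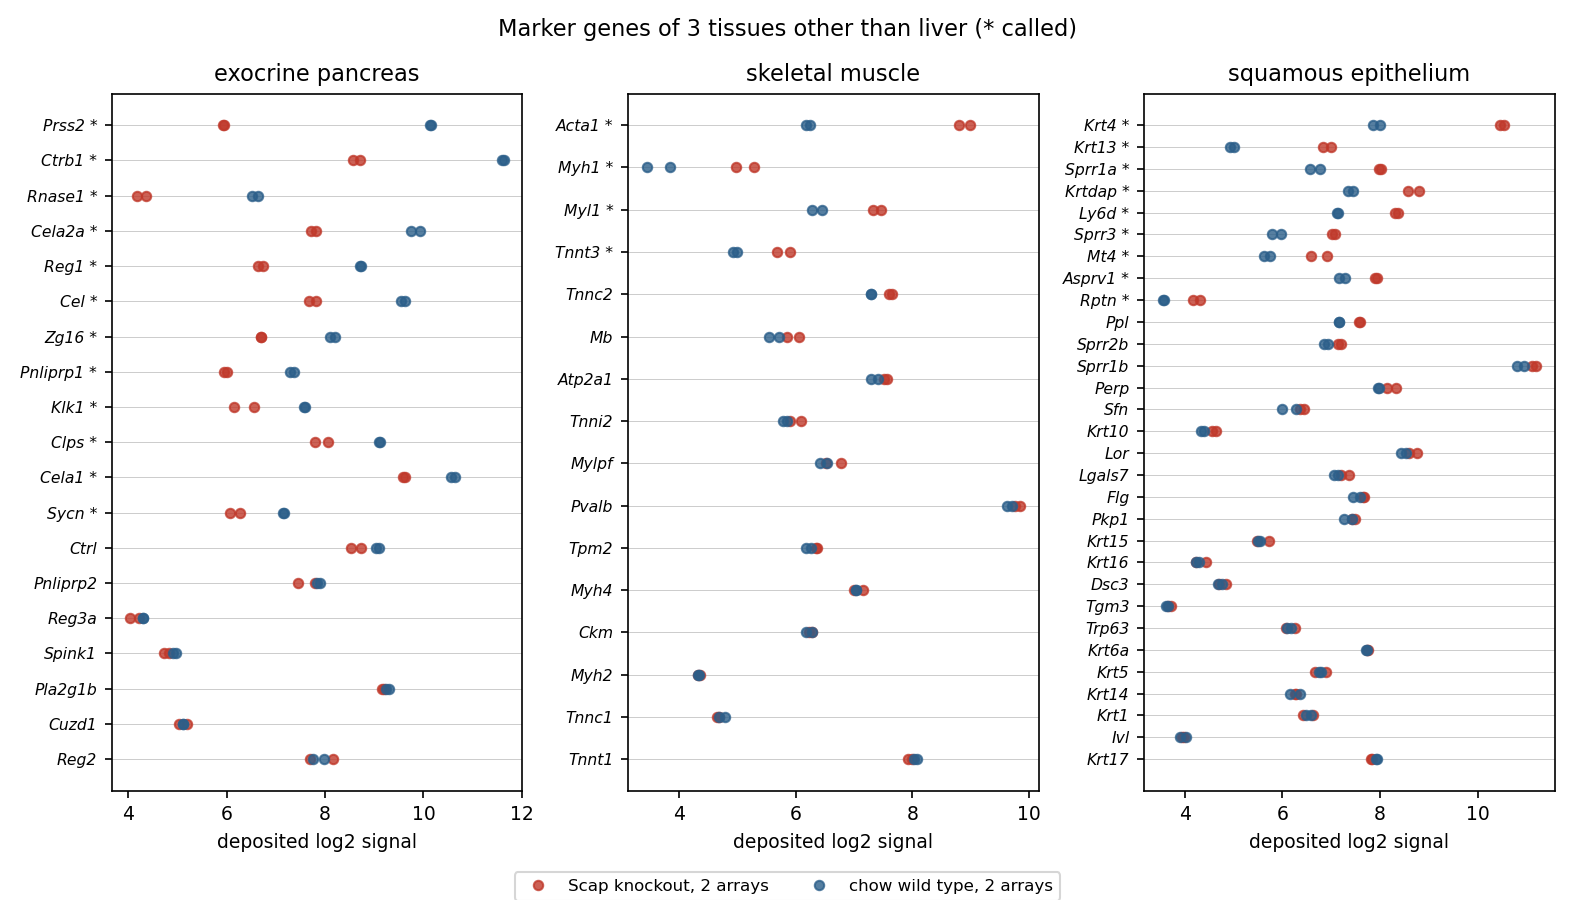
Log2 signal (horizontal axis) of the measured marker genes of exocrine pancreas, skeletal muscle and squamous epithelium on the 2 Scap knockout arrays (red) and the 2 chow wild type arrays (blue), with an asterisk for a call. Knockout points lie left of wild type points for the 12 called pancreas genes and right of them for the 4 called muscle and 9 called squamous genes, and most other members show no separation of that size.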

How the data were processed

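Liver RNA pools were measured on Affymetrix MG_U74Av2 arrays, 2 arrays per pool. The authors deposited log2 signals, made with RMA per the submitters' processing notes. The version is not given in the sources used here. The series' design text names Microarray Suite 5.0, whose signals are linear, while the deposited values span a log2 range and were used as such. Of 12488 probe sets, 66 controls, 396 with several gene symbols and 1193 with none were left out. Of the 10833 with a single symbol, 10817 matched a RefSeq gene. Each of 8251 genes was represented by its brightest probe set (mean of all 10 arrays), and 2073 genes had several. All 10 arrays were fitted in limma 3.58.1 (R 4.3.3), with 1 coefficient per group, moderated variances and Benjamini-Hochberg adjustment over all genes. The fit was tested on simulated data. Summaries and plots used Python 3.11.15, pandas 2.3.3, numpy 2.4.6 and matplotlib 3.10.9.

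Genes were named by a rule: the 40 largest increases and 40 largest decreases among called genes, called list members, the 4 largest differences per list, and all measured members of 4 lipid lists. The text gives a part of these, and some further genes chosen after their values were seen. The members and lists were chosen with earlier results of these data known, and the squamous epithelium list after these values were seen. Alternatives covered the arrays fitted, the block, probe sets, dim genes, scaling, the variance prior, the test and each array left out. Nothing gave the depth of an array beyond its signal, and the spread between duplicates sets the precision.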

Additional observations from a re-analysis of the deposited data

How the results depend on the processing

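The total of called genes stayed within 1.5 times of 137 under every alternative run except the treat test of a change above 1.5-fold, which called 41 genes, 10 higher and 31 lower. With 1 of the 4 arrays left out, 100 to 116 genes were called, 39 to 50 higher and 59 to 69 lower. Arrays of the same replicate number deviated together within each set (correlation of 0.304 for Scap knockout and wild type, and 0.457 to 0.608 among the 3 high-protein groups). Across sets they deviated in opposite directions (-0.482 to -0.122), in part more strongly than the 0.304. These correlations are a hint from the data, since no label ties a number to a shared day or batch and the comparison has a single pair of groups. With the replicate number as a block within each set 150 genes were called (64 higher, 86 lower), all 137 among them, and with 1 block over all arrays 139 (60 and 79). The 4 arrays alone gave 150, the mean of probe sets 130 (121 shared with the 137), plain probe sets 118 of 7660 genes, and leaving out the dimmest 25% of genes 126. Quantile normalization, centring and the trended robust prior each gave 138. Among single genes, Ighm turned to 0.078 on its plain probe set and Lrp1 to 0.008 after quantile normalization. With each of the 4 arrays left out in turn, Elovl2 ran from -0.188 to 0.018, Ggps1 from -0.028 to 0.06 and Cyp7a1 from -0.142 to 0.491. The cause was not tested for any of these. Dim probe sets limit the measured size of a difference, and 1 pool a group leaves out the spread between mice.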
